A study of Mus musculus with 3 samples.

Results

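The NMDA receptor subunits are the 7 genes Grin1, Grin2a, Grin2b, Grin2c, Grin2d, Grin3a and Grin3b. They were found by symbol among 20808 mouse genes with an annotated 5′ UTR, coding sequence (CDS) and 3′ UTR, and all 7 members were present. Their footprints were counted in primary cortical neurons of the mouse, in 3 ribosome profiling libraries with 1 library per treatment. In WT the neurons were left untreated, in Chx they were given cycloheximide for 2 min, and in Harr harringtonine for 2 min followed by a pulse of cycloheximide. Cycloheximide arrests elongating ribosomes, whereas harringtonine holds ribosomes at the start of translation and lets those already elongating run on. Rinsing and lysis took place in 100 μg of cycloheximide per ml for every library, WT included, and each library was made from 3 pooled dishes. Per the study's methods the cultures came from the cortices of mid-gestation embryos of the albino CD-1 stock and were grown in Neurobasal medium with B27, and the labels give no genotype.

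Most NMDA receptors are glutamate-gated cation channels that carry calcium into the postsynaptic cell, and magnesium blocks their pore until the membrane is depolarized. Each receptor contains the obligatory GluN1 subunit, encoded by Grin1, which binds glycine or D-serine. GluN1 assembles with GluN2 subunits (Grin2a to Grin2d), which bind glutamate and set channel kinetics, or with GluN3 subunits (Grin3a and Grin3b), which bind glycine and with GluN1 alone form channels gated by glycine. In rodent forebrain, GluN2B predominates early in life and GluN2A rises after birth.

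There are no replicate libraries, so differences could not be checked against replicate error and carry no p-values. The intervals below are 95% intervals for counting error alone (amplified reads may come from the same molecule), and they compare these libraries and not the treatments. The header totals ranged from 9754412 reads in Harr to 35722483 in Chx, so Harr values are the least precise. A count of 3 reads, taken as the floor, corresponds to between 0.0840 and 0.308 reads per 1000000. The summed CDS reads of 5 neuronal markers came to between 3677 and 3947 reads per 1000000. Those of 3 markers of GABAergic neurons came to between 586.5 and 1332, and those of 2 markers of glutamatergic neurons to between 38.0 and 66.0. These sums were not read as shares of cells. Those of 4 astrocyte markers came to between 78.8 and 213 reads per 1000000 and those of 4 microglial markers to between 1.44 and 2.80. The oligodendrocyte markers Mog and Mobp were at 0 in all 3 libraries. Reads of non-neuronal markers were thus present, and their part in the levels below was not tested.

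The start codons of the members are shown because reads in the 5′ UTR are compared with reads in the CDS below. Reads were counted at their 5′ end, so a ribosome standing on the start codon is counted upstream of it. Each sequence gives 12 bases of the 5′ UTR and the first codons of the CDS, from the longest transcript in GENCODE M21 on mm10, with the ATG in capitals.
Grin1: tgcccgaggctcATGagcaccatgcac
Grin2a: taagtggcgaccATGggcagactgggc
Grin2b: gacgagctgaagATGaagcccagcgca
Grin2c: cctccagtggacATGggtggagccctg
Grin2d: ggcccgcaggcgATGcgcggcgccggt
Grin3a: cgggtctcagtaATGaggagactgagt
Grin3b: acttccatcgggATGgagtgtgtgcag

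All 7 transcripts began their CDS with ATG. A purine lay 3 bases before the ATG in 6 of the 7 members, with Grin1 as the exception, and in 84.1% of 20639 genes with an ATG start. ATG triplets upstream of the start codon were found in 5 of the 7 members, against 55.4% of all genes with a matching transcript sequence. Grin2b held 9 of them, Grin2a 7, Grin3a 3, Grin2d 2 and Grin3b 1. The 5′ UTRs of Grin1 and Grin2c held none. The upstream ATGs opened reading frames of 9 to 405 nt, and the 4 frames that ran into the CDS were all out of frame with it. Of the 9 in Grin2b, 8 closed within the 5′ UTR after 9 to 99 nt and 1 ran into the CDS. In Grin2a, 5 of 7 closed within the 5′ UTR after 21 to 63 nt. The shortest frame of Grin2a and a short one of Grin2b are given with their start and stop codons in capitals, because they lie in the upstream exons whose reads are described below.
Grin2a, 307 nt before the start codon: ATGgggccggatgagctcTGA
Grin2b, 280 nt before the start codon: ATGgctctggattctgcattgTGA

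Grin1 carried the most CDS reads of the 7 members, followed by Grin2b. CDS levels are given as reads per kilobase of CDS and per 1000000 reads of the library (RPKM), which allows genes of different length to be compared. Grin1 stood at 138 RPKM in WT (interval 136 to 141), 153 in Chx (150 to 155) and 189 in Harr (184 to 195). Its counts were 12051, 15709 and 5320 reads, and it held between 71.4% and 75.1% of all CDS reads of the family. Its level was above that of 96.3% of all genes in WT, 96.7% in Chx and 99.1% in Harr.

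Among the glutamate-binding GluN2 subunits, Grin2b was the highest. It stood at 25.9 RPKM in WT (25.002 to 26.7), 28.4 in Chx (27.6 to 29.3) and 30.002 in Harr (28.4 to 31.7). Per nucleotide of CDS, Grin1 was therefore 5.36-fold above Grin2b in WT (5.16 to 5.56), 5.37-fold in Chx and 6.31-fold in Harr. Against the sum of the 4 GluN2 genes, Grin1 was 4.46-fold higher in WT, 4.39-fold in Chx and 5.27-fold in Harr.

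Grin2d, a GluN2 gene known from the developing brain and from interneurons, stood at 2.67 RPKM in WT, 3.23 in Chx and 3.10 in Harr. Grin2c, best known from the cerebellum, stood at 0.160 RPKM in WT (18 reads), 0.226 in Chx (30 reads) and 0.358 in Harr (13 reads). In each library Grin2d was above Grin2c, by 16.7-fold in WT (10.4 to 28.5), 14.3-fold in Chx and 8.65-fold in Harr (4.87 to 16.7).

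The GluN3 genes differed. Grin3a, whose product reduces calcium entry when it joins a receptor, stood at 6.67 RPKM in WT (6.18 to 7.19), 6.28 in Chx and 6.80 in Harr, above every GluN2 gene except Grin2b. Grin3b, known mainly from motor neurons, had 0 reads in WT and Harr and 1 read in Chx. The floor of 3 reads stands at 0.0330 RPKM in WT and 0.102 RPKM in Harr, so Grin3b was not detectable at this depth.

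**Figure D1:**
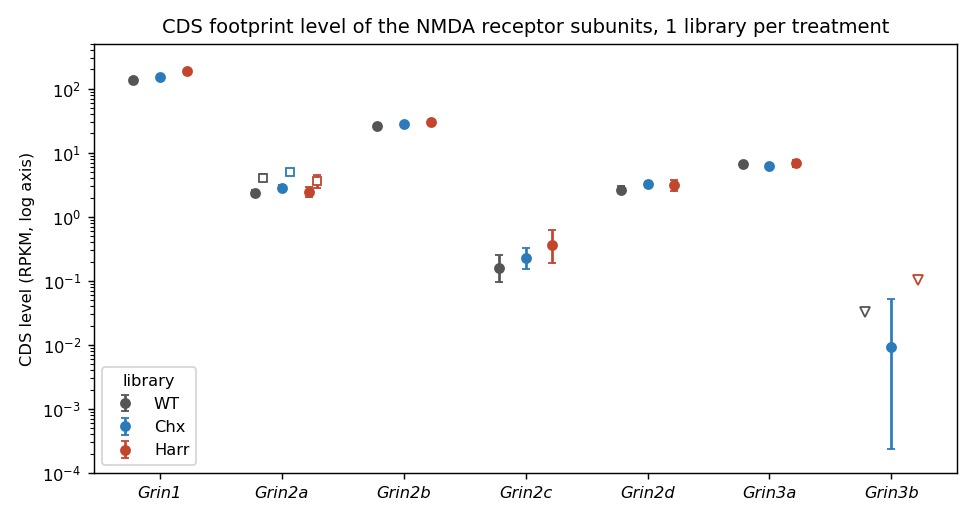
CDS level of each subunit in RPKM on a log axis, with 1 point per library (grey WT, blue Chx, red Harr) and 95% exact Poisson intervals. Open triangles mark the floor of 3 reads where 0 were counted, and open squares give Grin2a over the coding segments it does not share with a pseudogene. Grin1 lies at 138 to 189 RPKM and Grin2b at 25.9 to 30.002 RPKM, above the other subunits in each library.

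The order was Grin1, Grin2b, Grin3a, Grin2d, Grin2a, Grin2c and Grin3b in each of the 3 libraries when all coding segments were used. The intervals of neighbours in this order did not overlap, except for Grin2d and Grin2a. The place of Grin2a in the order depends on which segments are counted. Over the whole CDS of 4395 nt, Grin2a had 315 reads in WT, 449 in Chx and 105 in Harr, which gave 2.37, 2.86 and 2.45 RPKM.

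Grin2a was the only member with extensive sequence identity to another locus. Of all 25-nt words of its CDS, 49.2% occur in Gm7328, a processed pseudogene at chr8:56952829-56955053 (mm10, plus strand), whereas the other 6 members shared at most 0.54% of their words with any other gene. The identity covers the last 3 coding segments of Grin2a, nt 2169 to 4395 of its CDS, in which between 88.4% and 99.4% of words were shared. Gm7328 carried 103 reads in WT, 184 in Chx and 84 in Harr, and the shared Grin2a segments carried 47, 61 and 29. Reads from this stretch could have been placed at either locus, so both counts are uncertain.

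Over the other 9 coding segments, nt 1 to 2168, Grin2a had 268 reads in WT, 388 in Chx and 76 in Harr. This gave 4.09 RPKM in WT (3.62 to 4.61), 5.01 in Chx (4.52 to 5.53) and 3.59 in Harr (2.83 to 4.50). On these segments Grin2a was above Grin2d in WT and Chx, where the Grin2d to Grin2a ratio was 0.652 (0.552 to 0.769) and 0.644 (0.562 to 0.740). In Harr the ratio was 0.862 (0.641 to 1.16), an interval that includes 1. Grin2b remained higher than Grin2a by 6.32-fold in WT (5.58 to 7.18), 5.68-fold in Chx (5.12 to 6.31) and 8.35-fold in Harr (6.62 to 10.7). With all segments these ratios were 10.9, 9.94 and 12.2. With the Gm7328 reads added to its whole CDS, Grin2a stood at 3.15 RPKM in WT, 4.03 in Chx and 4.41 in Harr.

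**Figure D2:**
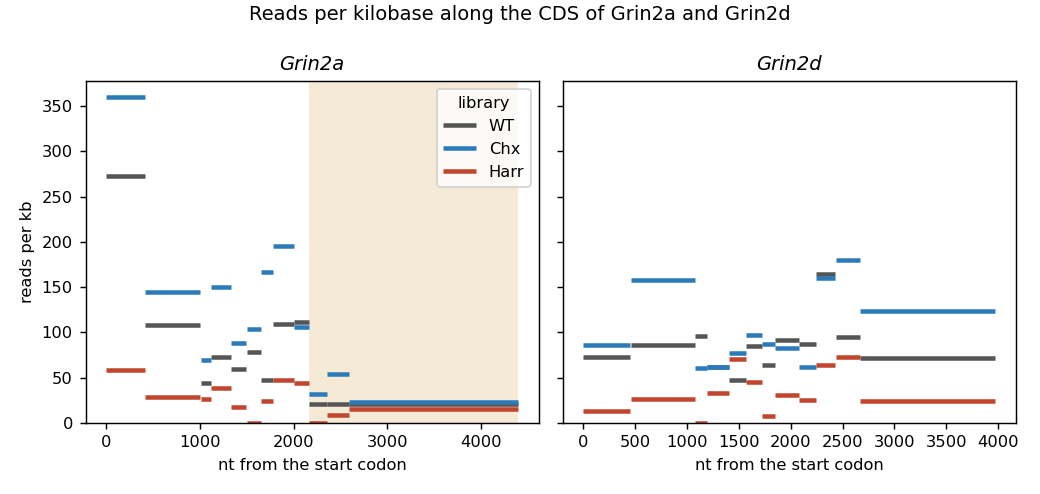
Reads per kilobase (not scaled to library depth) in each coding segment of Grin2a and Grin2d against the distance from the start codon, with 1 line per segment and library (grey WT, blue Chx, red Harr). The shaded stretch of Grin2a is nt 2169 to 4395, shared with Gm7328, where the last segment holds 21.1 reads per kilobase in WT, against 273 in the first segment.

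In WT the read density of Grin2a was 273 reads per kilobase in the first coding segment, between 43.5 and 112 in the other 8 unshared segments with no steady trend, and between 20.9 and 21.3 in the 3 shared ones. Read density within 1200 nt of the start codon was compared with that beyond it, as a log2 ratio. Over all segments of Grin2a the log2 ratio was 2.00 in WT and 1.78 in Chx, higher than in 94.1% and 92.4% of the genes with a CDS of at least 2400 nt and at least 100 CDS reads. Over the unshared segments it was 0.98 in WT (0.60 to 1.37) and 0.64 in Chx (0.34 to 0.95), beside medians of 0.86 and 0.79 over those genes. Grin2d had nearly even density, with log2 ratios of 0.03 in WT (-0.34 to 0.37) and 0.10 in Chx (-0.20 to 0.39). Grin2b had 1.17 in WT and 0.80 in Chx, and Grin1 had 0.24 and 0.30.

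To ask whether the drugs changed how many reads each subunit contributed, CDS reads per 1000000 CDS reads were compared between libraries. No member passed a 2-fold difference with an interval excluding 0 in any pair, among the 5 members with at least 100 CDS reads over the 3 libraries. Grin2c and Grin3b did not pass this filter. Over all 11459 genes tested, 4.63% were called higher and 13.9% lower in Harr than in Chx. Against WT, 5.30% were called higher and 14.5% lower in Harr. Between Chx and WT, 0.201% were called higher and 0.122% lower in Chx.

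Relative to all CDS reads, the 5 members had Harr values above Chx, with log2 ratios of 0.86 for Grin1 (0.81 to 0.90), 0.67 for Grin3a (0.44 to 0.88), 0.63 for Grin2b (0.54 to 0.71), 0.49 for Grin2d (0.19 to 0.78) and 0.33 for Grin2a (0.00 to 0.63). Over its unshared segments Grin2a had 0.08 (-0.31 to 0.43). Their median was 0.63, beside -0.05 over all genes. Long CDSs had higher Harr values in general, and the members are long. The median over genes with a CDS of 2000 to 4000 nt was 0.36, and over genes with a longer CDS it was 0.66. Within its length class Grin1 was above 87.6% of genes, Grin3a above 76.3%, Grin2d above 61.9%, Grin2b above 45.0% and Grin2a above 15.7%.

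These values depend on the scaling. Scaling to header totals, as in the RPKM, lowered the log2 ratio of Harr to Chx of all genes by 0.55, so that 0.559% were called higher and 31.3% lower in Harr, and the median over all genes became -0.60. It turned the directions of Grin2d and Grin2a, to -0.06 (-0.36 to 0.23) and -0.22 (-0.54 to 0.09). It left 0.31 for Grin1 (0.27 to 0.36), 0.12 for Grin3a (-0.11 to 0.33) and 0.08 for Grin2b (-0.01 to 0.17). The distances of the members from the median over all genes do not change with the scaling.

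Against WT, Harr was higher by 0.96 for Grin1 (0.92 to 1.01), 0.73 for Grin2d, 0.73 for Grin2b, 0.56 for Grin2a and 0.54 for Grin3a, all as log2 ratios. Over its unshared segments Grin2a had 0.33 (-0.06 to 0.70). Scaled to header totals, which lowered all genes by 0.51 and gave 0.681% of genes called higher and 29.0% lower, the values over whole CDSs were 0.45 for Grin1 (0.40 to 0.50), 0.22 for Grin2d (-0.10 to 0.52), 0.21 for Grin2b (0.12 to 0.31), 0.05 for Grin2a (-0.29 to 0.37) and 0.03 for Grin3a (-0.20 to 0.25). Scaled to CDS reads, Grin1 came close to the 2-fold limit and was above 91.2% of its length class. Chx and WT differed little. The log2 ratio of Chx to WT was 0.10 for Grin1 (0.07 to 0.14), 0.10 for Grin2b, 0.23 for Grin2a, 0.24 for Grin2d and -0.12 for Grin3a, with an interval of -0.28 to 0.03 for the last. These 3 comparisons share libraries, so they are not independent of each other.

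Reads were fewest in Harr in the 5′ part of the CDS, relative to the other libraries. In Grin1, the first coding segment (258 nt) had 1751 reads in WT, 2526 in Chx and 604 in Harr, a log2 ratio of Harr to Chx of 0.36 (0.23 to 0.49) per 1000000 CDS reads. The next 2 segments together, up to nt 570, had 1622, 2262 and 230 reads, and here Harr was below Chx by a log2 ratio of -0.87 (-1.08 to -0.68) and below WT by -0.67 (-0.88 to -0.48). From 600 to 1200 nt the Harr to Chx ratio was 0.75 (0.63 to 0.87), from 1200 to 2100 nt 1.14 (1.07 to 1.21), and beyond 2100 nt 1.37 (1.28 to 1.46). The second and the third coding segments were the only ones of Grin1 whose Harr to Chx interval lay below 0, and by the seventh, from nt 857 on, the log2 ratio had reached 0.89 (0.72 to 1.06). With header totals each Harr to Chx value along the CDS is lower by 0.55, which puts the first segment of Grin1 below 0 and leaves the stretches beyond 600 nt above it.

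Grin2b differed from Grin1 at the first segment. Its first coding segment (411 nt) had 794 reads in WT, 792 in Chx and 89 in Harr, and Harr was below Chx by a log2 ratio of -0.73 (-1.07 to -0.42) and below WT by -1.01 (-1.35 to -0.70). Beyond 1200 nt the Harr to Chx ratio was above 0, at 1.14 (0.98 to 1.31) up to 2100 nt and 0.93 (0.80 to 1.06) farther on. The intervals of the first segment do not overlap between Grin1 and Grin2b.

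**Figure D3:**
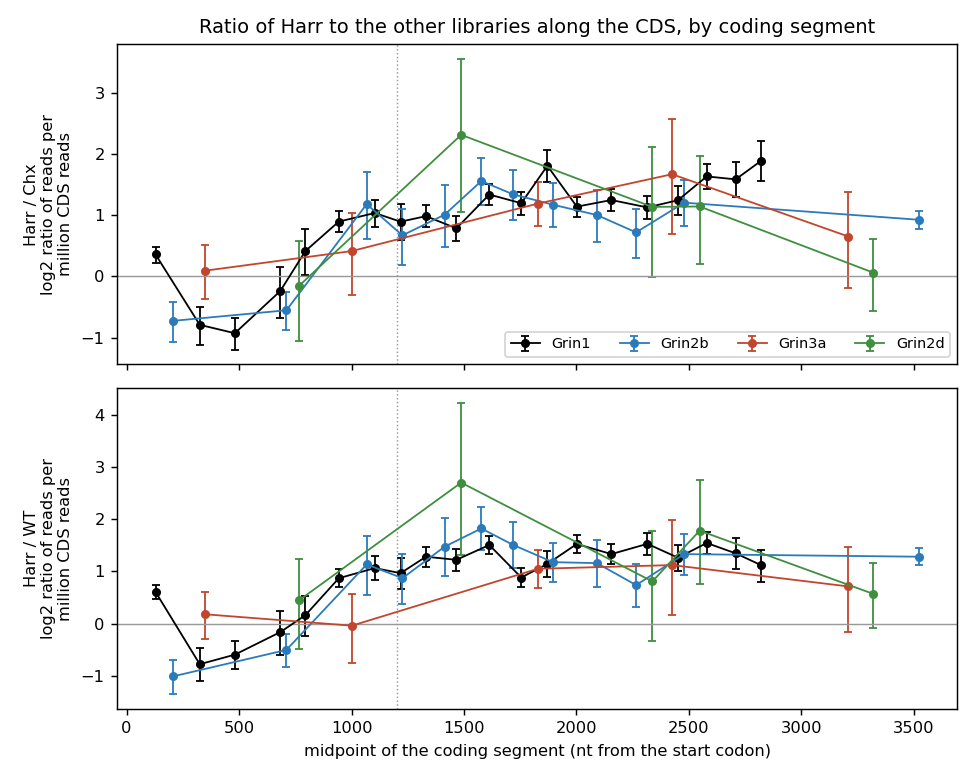
Log2 ratio of Harr to Chx (top) and Harr to WT (bottom), in reads per 1000000 CDS reads, for each coding segment of 4 subunits with at least 10 Harr reads, against the distance of its midpoint from the start codon; bars are 95% counting intervals and the dotted line marks 1200 nt. Grin1 falls to -0.93 against Chx in the third segment and Grin2b starts at -0.73, and both lie above 0 beyond 1200 nt.

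For each member, reads within 1200 nt of the start codon were set against those beyond, as a log2 odds ratio between libraries. Between Harr and Chx it was -0.99 for Grin1 (-1.08 to -0.89), -1.45 for Grin2b (-1.67 to -1.23), -0.82 for Grin3a (-1.27 to -0.37) and -1.01 for Grin2d (-1.73 to -0.29). Grin2b and Grin2d were past 2-fold, 2 of the 6 members with enough reads, while 62.7% of 5612 genes were. The Grin2d call rested on 22 near reads in Harr, and its value was -0.90 with the boundary at 900 nt and -0.18 with it at 1500 nt. Grin1 was past 2-fold with the boundary at 900 nt, at -1.26, and without its first coding segment, at -1.05. For Grin2a the value was -0.70 over all segments (-1.32 to -0.09) and -0.29 over the unshared ones (-1.01 to 0.43). Grin2c had 8 near and 5 far reads in Harr, and its interval of -0.67 to 3.06 included 0.

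Against WT, Grin2b was past 2-fold at -1.82 (-2.05 to -1.59), 1 of the 6 members, while 61.5% of 5564 genes were. Grin1 stood at -0.93 and Grin3a at -0.74. Summed over the 7 members the log2 odds ratio was -1.02 (-1.11 to -0.94) between Harr and Chx, and -1.23 (-1.41 to -1.05) without Grin1. The median over all genes was -1.35 between Harr and Chx. Between Chx and WT no member was called lower in Chx, while 0.933% of genes were. Grin2b had -0.37 there (-0.50 to -0.24), whereas Grin1 had 0.06 (-0.01 to 0.13).

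In untreated neurons, 5′ UTR reads per CDS read lay above the median of genes in Grin2a, Grin2b and Grin3a, and below it in Grin1 and in the longest transcript of Grin2d. Grin1 had 272 reads in its 5′ UTR of 209 nt in WT, 864 in Chx and 997 in Harr. This amounts to 0.0226 reads per CDS read in WT (0.0199 to 0.0255), 0.0550 in Chx (0.0513 to 0.0589) and 0.187 in Harr (0.175 to 0.201). Among genes with 100 or more CDS reads in the library the medians were 0.0485, 0.0870 and 0.360, so Grin1 lay below the median in each library.

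Grin2b had 1089 reads in its 5′ UTR of 746 nt in WT, 1336 in Chx and 809 in Harr. Per CDS read this was 0.313 in WT (0.292 to 0.335), 0.296 in Chx (0.278 to 0.314) and 0.621 in Harr (0.568 to 0.679). In WT, 91.9% of genes had a lower ratio than Grin2b. Per nucleotide, the 5′ UTR of Grin2b was read 1.87 times as densely as its CDS in WT (1.74 to 2.00), whereas that of Grin1 was read 0.311 times as densely (0.275 to 0.351) and the median over genes was 0.362.

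Grin2a and Grin3a resembled Grin2b rather than Grin1 in WT. Grin2a had 79 reads in its 5′ UTR in WT, 97 in Chx and 65 in Harr, or 0.251, 0.216 and 0.619 per CDS read over all coding segments. Grin3a had 118, 123 and 92, or 0.172, 0.161 and 0.407 per CDS read. In WT, 89.0% of genes lay below Grin2a and 82.7% below Grin3a. Grin2c had 0 reads in WT, 4 in Chx and 6 in Harr, and Grin3b had none.

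**Figure D4:**
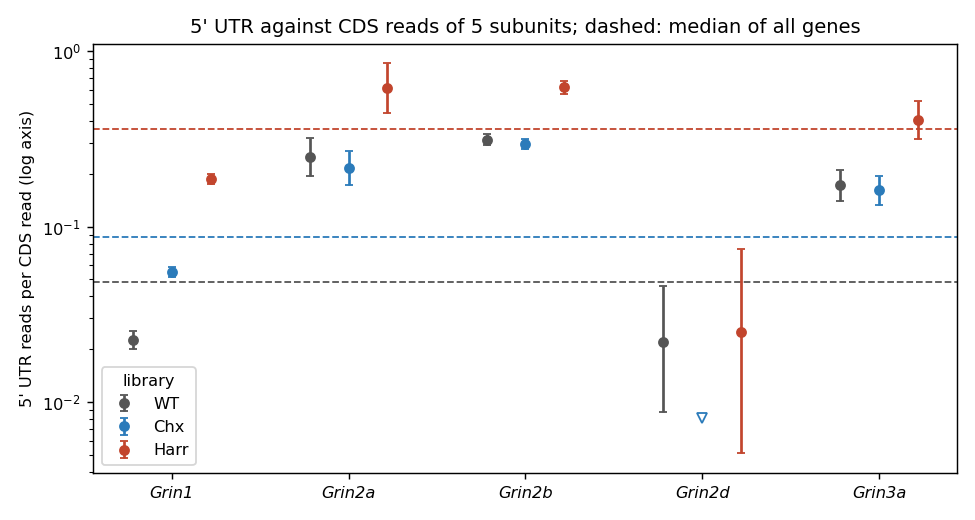
Reads in the 5′ UTR per read in the CDS (log axis) for 5 subunits, with 1 point per library (grey WT, blue Chx, red Harr) and 95% counting intervals; dashed lines give each library's median among genes with 100 or more CDS reads in it. The open triangle for Grin2d in Chx marks the upper bound from 0 reads on its longest transcript. In WT and Chx, Grin2a, Grin2b and Grin3a lie above the medians of 0.0485 and 0.0870, and Grin1 lies below them.

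The 5′ UTR to CDS ratio of Grin1 in Harr exceeded that in Chx by a log2 odds ratio of 1.77 (1.63 to 1.91), and that in WT by 3.05 (2.85 to 3.25). Chx also exceeded WT, by 1.28 (1.08 to 1.48). For Grin2b the values were 1.07 (0.92 to 1.23), 0.99 (0.83 to 1.15) and -0.08 (-0.22 to 0.05). The intervals of Grin1 and Grin2b do not overlap in any of the 3 pairs. However, the 5′ UTR of Grin1 lies wholly in its start exon, unlike that of Grin2b. Over its start exon segment of 18 nt alone, Grin2b had 1.32 between Harr and Chx (0.84 to 1.80), which overlaps the interval of Grin1. Its values of 1.18 between Harr and WT (0.68 to 1.68) and -0.14 between Chx and WT (-0.60 to 0.32) do not.

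Grin2a had 1.52 between Harr and Chx (0.97 to 2.06), 1.30 between Harr and WT and -0.22 between Chx and WT (-0.69 to 0.26). Against its unshared coding segments alone, the value between Harr and Chx was 1.77 (1.20 to 2.34). Grin3a had 1.34 (0.89 to 1.78), 1.24 and -0.09 (-0.49 to 0.30). Between Harr and Chx 4 of the 5 members with enough reads were called higher, and 89.4% of 10723 genes were. Between Harr and WT it was 3 of 5, with Grin2b just under the limit and Grin2d at 0.31, and 94.3% of 10314 genes were. Between Chx and WT only Grin1 was called, 1 of 4, and 30.3% of 10430 genes were. The median over all genes was 2.46 for Harr against Chx and 3.23 for Harr against WT. Grin1 was above 24.97% and 44.2% of genes in these pairs and Grin2b above 8.78% and 3.88%, so each lay below the median.

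The upstream reads of Grin2b lay mostly outside the start exon. Its 5′ UTR has 3 segments, of which the last, 18 nt at chr6:136044302-136044319 (mm10, minus strand), adjoins the start codon. The middle segment, 467 nt at chr6:136171416-136171882, holds 8 of the 9 upstream ATGs and carried 838 reads in WT, 964 in Chx and 521 in Harr. The outer segment of 261 nt carried 179, 287 and 227 reads. In WT the middle segment was read 2.30 times as densely as the CDS and the outer one 0.878 times. The start exon segment carried 72, 85 and 61 reads and was the densest of the 3, at 5.12 times the CDS in WT, 4.65 in Chx and 11.6 in Harr.

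The outer exon of Grin2a, 101 nt at chr16:9994823-9994923 (minus strand), holds 4 upstream ATGs and carried 45 reads in each of WT and Harr and 43 in Chx. The ratio of its reads to CDS reads in Harr exceeded that in Chx by a log2 odds ratio of 2.16 (1.48 to 2.83). The second segment, 191 nt with 3 upstream ATGs, carried 32 reads in WT, 39 in Chx and 15 in Harr. The 18 nt next to the start codon carried 2, 15 and 5 reads. The tables give no position within a segment, so reads could not be assigned to single upstream reading frames.

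Summed over the upstream exons alone, the Grin2b ratio in Harr exceeded that in Chx by 1.05 (0.90 to 1.21) and differed by -0.08 (-0.22 to 0.06) between Chx and WT, on the log2 odds scale. For Grin2d the choice of transcript decided what was seen. Its longest transcript carried 7 reads in the 5′ UTR in WT, 0 in Chx and 3 in Harr. The transcript with the most reads has an upstream exon of 719 nt at chr7:45869711-45870429 (minus strand) with 8 upstream ATGs. This exon carried 57 reads in WT, 48 in Chx and 46 in Harr. In WT it was read 0.984 times as densely as the CDS, while the median over genes for the whole 5′ UTR was 0.362. On that transcript the 5′ UTR to CDS ratio of Grin2d was higher in Harr than in WT by a log2 odds ratio of 1.14 (0.51 to 1.77).

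The 3′ UTR carried few reads. In the longest transcripts of Grin1 and Grin3b it overlaps sequence that is coding in another annotated transcript. Grin2b had 3 reads in 18865 nt in WT, 7 in Chx and 12 in Harr. Grin2a had 1 in each library, Grin3a had 3, 0 and 5, Grin2d had 3, 9 and 1, and Grin2c and Grin3b had none. Grin1 had 92 reads in WT, 63 in Chx and 102 in Harr. Of these, 67, 43 and 30 lay in a stretch that is 3′ UTR in the longest transcript and coding in others, described below. Without it Grin1 had 25 reads in WT, 20 in Chx and 72 in Harr over 1118 nt, or 0.534%, 0.328% and 3.49% of the density in its CDS.

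Harr was called higher than Chx in the 3′ UTR to CDS ratio for 2 of 3 members with enough reads, Grin1 at 2.25 (1.80 to 2.71) and Grin2b at 2.53 (1.22 to 3.84), as log2 odds ratios. Over all genes 86.5% were called. Against WT it was 2 of 2 members and 79.8% of genes, with 1.33 for Grin1 (0.92 to 1.74) and 3.25 for Grin2b (1.54 to 4.97). No member of 3 was called higher in Chx than in WT, where 0.740% of genes were. The value of Grin1 without the stretch that is coding elsewhere was 3.38 for Harr against Chx and 2.69 for Harr against WT.

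Grin1 transcripts differ in 4 coding segments, each present in 4 of 8 complete coding transcripts. The cassette N1 encodes an extracellular insert known to change the proton sensitivity of the receptor, C1 encodes an intracellular cassette with phosphorylation and retention signals, and C2 or C2′ gives the alternative C terminus. Their sequences are shown for the 3 that are coding wherever they are annotated, on the minus strand of chromosome 2 (mm10), with a stop codon in capitals.
N1, chr2:25311343-25311405: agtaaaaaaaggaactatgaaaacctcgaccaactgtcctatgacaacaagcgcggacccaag
C1, chr2:25294438-25294548: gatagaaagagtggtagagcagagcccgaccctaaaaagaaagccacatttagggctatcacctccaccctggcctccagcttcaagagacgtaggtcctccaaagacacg
C2, chr2:25292368-25292484: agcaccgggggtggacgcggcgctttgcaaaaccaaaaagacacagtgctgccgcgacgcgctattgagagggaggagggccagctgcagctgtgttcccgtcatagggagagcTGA

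N1 carried few footprints. Its 63 nt carried 10 reads in WT, 10 in Chx and 3 in Harr. The 2 constitutive segments on its sides (278 nt together) carried 1182, 1738 and 192 reads, so that N1 had 3.73% of their density in WT (1.79% to 6.89%), 2.54% in Chx (1.22% to 4.68%) and 6.89% in Harr (1.41% to 20.5%). At 159 reads per kilobase in WT, N1 was below the lowest of the 18 constitutive segments, which had 2467.

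C1 was well covered. Its 111 nt carried 273 reads in WT, 281 in Chx and 157 in Harr. Compared with the constitutive segment before it (146 nt with 509, 581 and 336 reads), C1 had 70.5% of the density in WT (60.7% to 81.9%), 63.6% in Chx (55.0% to 73.5%) and 61.5% in Harr (50.5% to 74.5%). The intervals of the 3 libraries overlap.

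At the C terminus, C2 was read more densely than C2′. The coding part of C2 (117 nt) carried 273 reads in WT, 194 in Chx and 134 in Harr, and that of C2′ (69 nt at chr2:25292060-25292128) carried 67, 43 and 30. Per nucleotide the C2 to C2′ ratio was 2.40 in WT (1.83 to 3.19), 2.66 in Chx (1.90 to 3.79) and 2.63 in Harr (1.76 to 4.06). Constitutive segments differed among themselves, from 2467 to 6787 reads per kilobase in WT, so these ratios compare footprint density and are not shares of transcripts. The density of C2 was under that of the lowest constitutive segment in WT (2333 against 2467 reads per kilobase) and in Chx (1658 against 2516), and above it in Harr (1145 against 574).

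**Figure D5:**
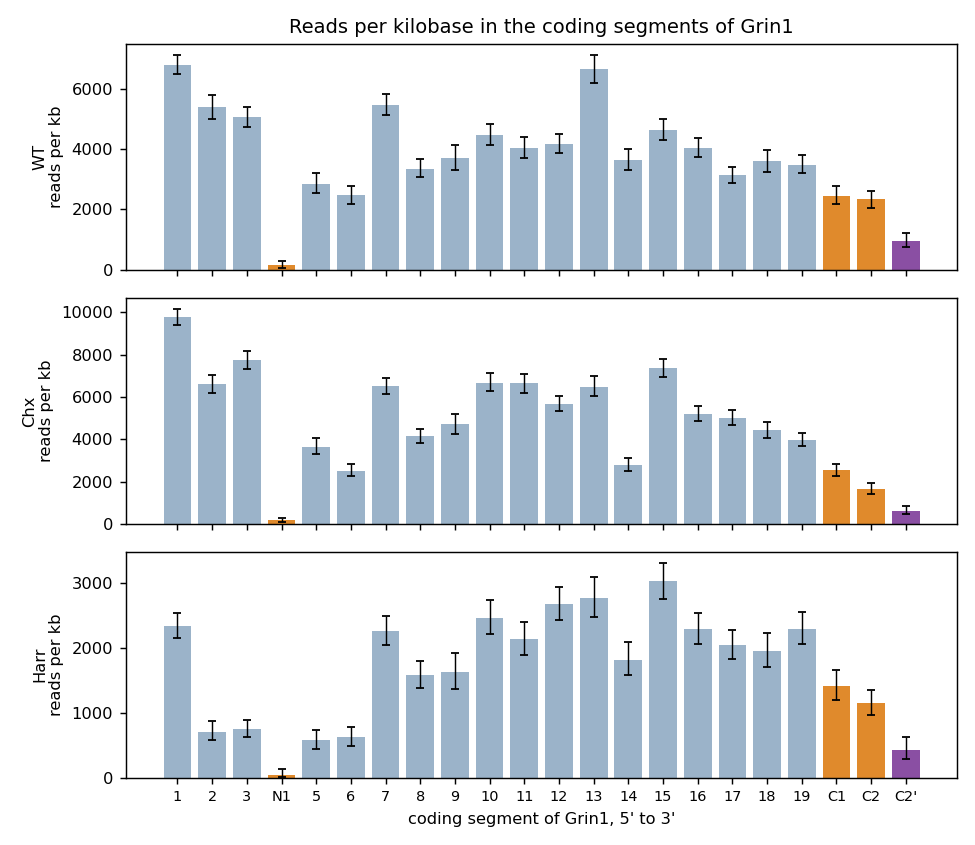
Reads per kilobase (not scaled to library depth) in the coding segments of Grin1 in 5′ to 3′ order, in WT, Chx and Harr, with 95% exact Poisson intervals; blue segments are in all complete coding transcripts, orange ones (N1, C1, C2) and the purple one (C2′) in some. N1 is near 0 in each library, and in Harr segments 2 to 6 are below the first segment and below those from segment 7 on to 19.

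The other members offered less to compare. The annotated complete transcripts of Grin2a, Grin2c and Grin2d did not differ in coding segments, and Grin3b had 1 such transcript. The 2 of Grin3a differ by 60 nt at the start of the last coding segment, which carried 7 reads in WT, 3 in Chx and 1 in Harr. The 3 complete transcripts of Grin2b share 2 coding segments, and the 11 other segments were not compared here.

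Related glutamate receptor genes give the members a scale. The 4 AMPA receptor subunits, which carry fast excitatory currents, had a median CDS level of 34.2 RPKM in WT, from 13.8 for Gria3 to 93.7 for Gria2. The 5 kainate receptor subunits had a median of 5.33 RPKM, from 1.05 for Grik4 to 9.42 for Grik2. This median is the value of Grik5, whose longest transcript has a CDS of only 813 nt. The other kainate receptor genes have a CDS of 2727 to 2871 nt. The 7 NMDA receptor subunits had a median of 2.67 RPKM and the widest range of these 3 families in WT, with Grin1 above Gria2 in each library.

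None of the AMPA or kainate receptor genes was called in any CDS comparison, where 4.63% of all genes were higher and 13.9% lower in Harr than in Chx. The median log2 CDS ratio of Harr to Chx was 0.43 for AMPA and 0.22 for kainate receptor genes, from 0.02 for Gria4 to 0.50 for Gria3. Among 24 partners of the NMDA receptor, such as scaffolds of the postsynaptic density and kinases, 1 was called higher in Harr than in Chx (the kinase anchor Akap5, 1.27) and 1 lower (the scaffold Lin7c, -1.71), and the median was 0.13. With header totals these values are lower by 0.55, which puts the medians of the AMPA, kainate and partner genes below 0 and Akap5 under the 2-fold limit. Against WT, Lin7c was again called lower (-1.77) and none was called higher, beside 14.5% and 5.30% of all genes.

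Upstream reads per CDS read were called higher in Harr, relative to Chx, for 4 of 4 AMPA, 4 of 5 kainate and 21 of 22 partner genes with enough reads, beside 89.4% of all genes. Their median log2 odds ratios were 2.30, 1.45 and 2.18, beside 1.52 for the 5 NMDA receptor subunits. The partner with the highest value was Camk2b at 4.57 and that with the lowest was Dlg3 at 0.50. Between Chx and WT 0 of 4 AMPA, 1 of 5 kainate and 3 of 22 partner genes were called higher in Chx, beside 30.3% of all genes. The AMPA receptor median was -0.17 there, from -0.73 for Gria4 to 0.40 for Gria2.

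Genes with the pattern closest to a member were sought by Euclidean distance over 6 values, the log2 CDS RPKM and the log2 ratio of 5′ UTR to CDS reads in each of the 3 libraries, among 3168 genes with at least 200 CDS and 10 5′ UTR reads in every library. Closest to Grin1 were Nedd4 (distance 0.76), P4hb (0.83) and Kif1a (0.89). Closest to Grin2b were Srr (0.61), Abca3 (0.64) and Bcl11a (0.75). Closest to Grin3a were Kcnh7 (0.27), Wdfy3 (0.56) and Dhx38 (0.63). Srr, which encodes serine racemase, the enzyme that makes the co-agonist D-serine, was also on the list of partners.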

How the data were processed

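Per the file headers, the authors aligned reads to mm10, removed ribosomal reads and duplicates, and used Plastid to count the 5′ end of each read of 25 to 100 nt (offset 0) in each segment of each transcript. The study's methods name TopHat for these libraries and Rsubread with Plastid for its other ribosome profiling, and the headers do not say which alignment was counted. The Plastid version is not given in the sources used here. The authors deposited 9 tables with counts, with a coverage signal (count per nucleotide of segment) and with RPKM per segment. Counts were used, and RPKM was recomputed per gene from counts and header totals. Transcripts were joined to GENCODE M21 (99.0% of 142446 identifiers matched with version), and the longest transcript per gene was used.

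Libraries were grouped by their treatment label, since the free-text descriptions name fractions of another experiment. Differences between libraries carry exact Poisson, exact conditional binomial or log odds intervals, with 0.5 added to counts in log ratios. A call needs a 2-fold difference and an interval that excludes 0. CDS ratios used genes with at least 100 CDS reads over the 3 libraries, and region and near to far ratios those with at least 10 reads in each part of a pair. The computations were tested on simulated data. Named genes are the 7 members, the highest and lowest gene of related lists (some of these are not reported here), and the 3 genes of closest pattern to each member with at least 200 CDS reads in every library. Gm7328 and the choice of segments of Grin2a followed from the values. The members and lists were chosen with earlier results of these data known. Tools were Python 3.11.15, NumPy, pandas, SciPy and matplotlib.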

Additional observations from a re-analysis of the deposited data

How the results depend on the processing

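No paired analysis was possible because each treatment has 1 library, so no replicate could be left out either. Each count of members called, and each count of neighbours in the order of levels whose intervals do not overlap, was recomputed under the alternatives, and 130 of 141 recomputed counts stayed within 1.5 times the value reported. Some of these counts could hardly change, so this share was not read as a measure of robustness. Scaling to CDS reads multiplies all subunits of a library by the same factor, some settings affect a single gene, and many counts were 0 to begin with. Without the filter on low counts, 1 member (Grin2c) was called higher in the CDS of Harr, against Chx and against WT alike, and 1 (Grin2d) was called lower in the 5′ UTR to CDS ratio of Chx against WT. With only exons upstream of the start exon, a setting chosen after seeing the data that leaves out Grin1 and Grin3a by construction, the 5′ UTR to CDS ratio was called higher for 2 members in Harr against Chx, 1 in Harr against WT and 0 in Chx against WT. When genes with a UTR that overlaps a CDS were set aside, which removes Grin1, the 3′ UTR to CDS ratio was called for 1 member in each of the Harr pairs. For reads near to and far from the start, the boundary at 1500 nt left 1 member called lower in Harr against Chx, since Grin2d was lost (it was lost, and Grin1 gained, at 900 nt), while the boundary at 900 nt, and leaving out the first coding segment, each gave 2 in Harr against WT, since Grin1 was gained. Of the density ratios along the CDS, that of Grin3a in Chx was -0.16 without the first coding segment and that of Grin2c in Harr -0.14 with the boundary at 900 nt, each with an interval that includes 0, and the cause was not tested. The shallow Harr library limits Grin2a, Grin2c and Grin2d, with 105, 13 and 120 CDS reads, and Grin3b, with 0. The alignment's handling of reads with several matches also limits Grin2a.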
